A study of Homo sapiens with 8 samples.

Results

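The aminoacyl-tRNA synthetases were examined as a family in a human hepatic cell line, in a transfected derivative of it and in that derivative after bioprinting. Members were the protein-coding genes whose symbols follow the naming of the family, from AARS to YARS with the mitochondrial forms, EPRS, FARSA, FARSB and TARSL2. The rule found 38 genes of the 58735 in the expression table, 19951 of which are protein-coding. The M14A printed group held 2 libraries of M14A cells, a HepaRG line whose genotype is given as FoxM1/HNF4A transfected, mixed into GP bioink, printed, and frozen in liquid nitrogen and ground 4 h later. The M14A plate group held 3 libraries of the same line detached from flasks, and the HepaRG plate group held 3 libraries of the parent line (genotype WT) collected in the same way. The label does not say what was transfected or in which direction either gene was meant to change. Levels are in FPKM, read counts scaled by gene length and by a divisor for each library. HNF4A stood at 17.1 and 13.6 FPKM in M14A printed and 37.9, 43.1 and 41.7 FPKM in M14A plate, against 5.67, 6.24 and 6.499 FPKM in HepaRG plate. Every library labelled M14A thus lay above HepaRG plate. FOXM1 stood at 10.1 and 10.1 FPKM in M14A printed and 13.0, 10.4 and 8.92 FPKM in M14A plate, against 12.9, 13.7 and 14.9 FPKM in HepaRG plate, so all but 1 of the libraries labelled M14A lay below every HepaRG plate library. The printed and plate groups differed in printing and in how cells were collected, which cannot be told apart, all libraries stem from 1 cell line, and separate cultures are not stated for the replicates, so p-values measure only the spread between libraries, which may be technical. Fewer cells of a kind and less RNA per cell cannot be told apart in such bulk samples.

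Aminoacyl-tRNA synthetases join each amino acid to its tRNA and so set the supply of charged tRNAs for translation. Human cells have a cytosolic set and a separate nuclear-encoded mitochondrial set, while GARS and KARS serve both compartments, and part of the cytosolic set is held in a multisynthetase complex by the scaffold proteins AIMP1, AIMP2 and EEF1E1. Uncharged tRNA activates the kinase GCN2 (EIF2AK4), which favours translation of the transcription factor ATF4, and many cytosolic synthetase genes are known ATF4 targets through C/EBP-ATF response elements in their promoters, while WARS is a known target of interferon gamma.

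Because of that known control, the promoters were read first. RefSeq promoter windows on GRCh38.p14, from 250 bases before to 50 bases after a gene's start, were matched for 30 of the 38 genes, with 39 windows in all. VARS, LARS, YARS, DARS, VARS2, AARS2 and TARSL2 were among those with no entry. The core of the C/EBP-ATF response element, searched as TGATGNAAN on both strands, stood in windows of 8 members, 7 of them cytosolic or serving both compartments and the last the mitochondrial YARS2. Across the reference 3.61% of 35116 windows, or 4.45% of 27305 genes, held these letters. Every matching stretch is printed because these genes recur in the comparison of the lines. Each is written in the direction of its gene with the motif in capitals, which reads as its reverse complement where the match lies on the other strand.
AARS: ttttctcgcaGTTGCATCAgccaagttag
CARS: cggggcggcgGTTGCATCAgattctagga
GARS: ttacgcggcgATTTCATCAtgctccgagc
IARS: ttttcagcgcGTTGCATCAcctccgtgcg
MARS: gccggttccgGTTGCATCAgcgagggatt
NARS: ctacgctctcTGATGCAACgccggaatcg
TARS: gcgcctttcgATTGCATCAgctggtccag
YARS2: tccacactgcTGATGGAAAaattaagttt
These stretches lie at chr16:70289676-70289704 (AARS, minus strand), chr11:3057408-3057436 (CARS, minus), chr7:30594834-30594862 (GARS, plus) and chr9:92293693-92293721 (IARS, minus). The others lie at chr12:57488053-57488081 (MARS, plus), chr18:57621804-57621832 (NARS, minus), chr5:33440956-33440984 (TARS, plus) and chr12:32756076-32756104 (YARS2, minus). The capital letters are the same in AARS, CARS, IARS and MARS, and NARS holds their reverse complement. The STAT element, searched as TTCNNNGAA, which reads the same on both strands, stood in windows of 5 members (CARS, PARS2, TARS, WARS and WARS2), and in 7.66% of all windows or 9.38% of all genes. The stretch in WARS, the member known to respond to interferon, lies at chr14:100375471-100375499 on the minus strand.
WARS: gctcaagtgtTTCTGAGAAtctgggtgat
No match of one motif overlapped a match of the other in these windows. A match describes letters in a window and does not show that a factor binds there.

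Expression was given as FPKM, a read count divided by gene length and by a divisor for each library, so levels of different members can be compared per length. The divisor was 0.818 and 0.853 times the recovered reads in M14A printed, 0.968 to 1.19 in M14A plate and 1.18 to 1.20 in HepaRG plate. Which reads it counts is not given. FPKM totals were 499995 to 514152 in M14A printed, 272290 to 350931 in M14A plate and 254141 to 266419 in HepaRG plate. The values correspond to 15632154 to 19148262 reads per library, and the least and the most read member had 19 and 9000 reads in a library. The label of hepatic stem cells was only partly borne out by markers. The progenitor and biliary list of 8 genes summed to 47.8 to 51.0 FPKM in M14A printed and 26.8 to 62.2 in M14A plate. In HepaRG plate it summed to 117 to 121 FPKM. EPCAM had 0 reads in both M14A groups, but only 0.0863 to 0.253 FPKM in HepaRG plate. KRT7 went the other way, at 1.82 to 2.22 FPKM in M14A plate against 0.455 to 0.468 FPKM in HepaRG plate. Of 5 tested genes of the list, 1 rose and 3 fell between the plate lines (limma, adjusted p below 0.05). The 10 hepatocyte genes summed to 769 to 788, 498 to 608 and 24.3 to 26.4 FPKM in the same 3 groups, the endothelial list did not exceed 2.65 FPKM in any library with CDH5 at 0 reads throughout, and the leukocyte list stayed between 2.26 and 11.8 FPKM. The 8 stellate cell and fibroblast genes summed to 103 to 108, 70.2 to 85.9 and 14.6 to 14.8 FPKM. These sums hide a split, since 3 of the 6 tested genes rose and 3 fell between the plate lines (limma, adjusted p below 0.05). Against HepaRG plate, 3 of them rose and 2 fell in M14A printed. The part of these marker differences in the results on synthetases was not tested.

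M14A plate library 1 stood apart from the other 2 of its group. Across all 38 members, its levels correlated with those of libraries 2 and 3 at Pearson's r of 0.932 and 0.910, against 0.996 between libraries 2 and 3. On the log2(FPKM + 1) scale, EPRS was 1.12 and LARS 1.11 lower in library 1 than the mean of the other 2, while YARS was 0.85 and MARS2 0.75 higher. The deviation followed the GC content of the transcripts, with Pearson's r of 0.719 and Spearman's rho of 0.694 across 37 synthetases, and 0.624 and 0.665 across 14337 genes tested. All points share the same 3 libraries. The same slope appeared between printed libraries 1 and 2, with a rho of 0.839 across the synthetases. Results for the synthetases are therefore given with and without M14A plate library 1. As a setting added after the data were seen, they are also given with each library's trend on GC content and gene length removed. Lists of related genes are given from the main fit, with these settings for some of them.

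**Figure D1:**
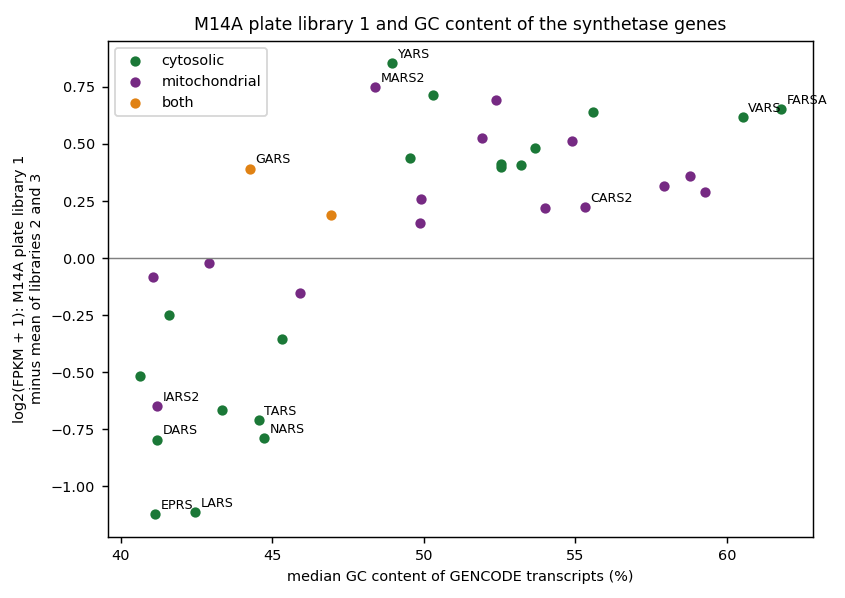
Deviation of M14A plate library 1 from the mean of libraries 2 and 3, as log2(FPKM + 1), against the median GC content of each gene's transcripts in percent, with 1 point for each of 36 tested synthetases coloured by compartment. Members of low GC content such as EPRS and LARS lie near -1.1 and members of higher GC content such as FARSA and VARS lie above 0.

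The most abundant member differed between groups. In M14A printed QARS led at 92.5 ± 4.35 FPKM, followed by KARS at 81.0 ± 4.34 (SD, n = 2). In M14A plate FARSA led at 85.4 ± 24.4 FPKM and VARS followed at 62.3 ± 16.7, but their ranges overlapped (SD, n = 3). In HepaRG plate FARSA (90.8 ± 3.93 FPKM) and AARS (86.3 ± 0.621 FPKM) led, and the lowest FARSA library at 88.2 lay just above the highest AARS library at 87.0 (SD, n = 3). Mitochondrial members were lower as a set, and IARS2 was the highest of them at 54.3 ± 7.96 FPKM in M14A printed, 42.9 ± 10.5 in M14A plate and 40.4 ± 0.0949 in HepaRG plate. SARS2 was the lowest, at 0.299 to 0.606 FPKM over all 8 libraries, failed the filter for testing (at least 1 FPKM in at least 2 libraries), and shares 57.0% of its exon bases with MRPS12 and AC011455.2.

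The whole family took 0.395 and 0.413% of reads in M14A printed, 0.436 to 0.470% in M14A plate and 0.598 to 0.601% in HepaRG plate. Its make-up differed as well. Mitochondrial members gave 19.8 and 21.1% of the summed synthetase FPKM in M14A printed, 21.6 to 23.2% in M14A plate and 15.3 to 15.7% in HepaRG plate, and the ranges of the M14A groups did not overlap that of HepaRG plate.

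The first comparison sets the M14A line against the HepaRG line, both grown in flasks. M14A plate cells had lower RNA of many cytosolic synthetases and slightly higher RNA of some mitochondrial ones. Of 19 cytosolic members 10 fell and 1 rose, of 16 tested mitochondrial members 0 fell and 4 rose, and of the pair that serves both compartments GARS fell. Together 11 of 37 tested members fell, against 14.7% of all 14349 genes tested, and 5 rose, against 16.1%. The median log2 fold change was -0.49 over the cytosolic members and 0.27 over the mitochondrial members, beside -0.040 over all genes tested. A gene counts as called where limma gave an adjusted p (Benjamini-Hochberg, over every gene with a test) below 0.05. Log2 fold changes were taken after adding 1 to each FPKM, so those of low genes are understated. When each library was rescaled to an equal FPKM total, the median of all genes moved to -0.22, that of the cytosolic members to -0.68 and that of the mitochondrial members to 0.092, so neither set changed direction.

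**Figure D2:**
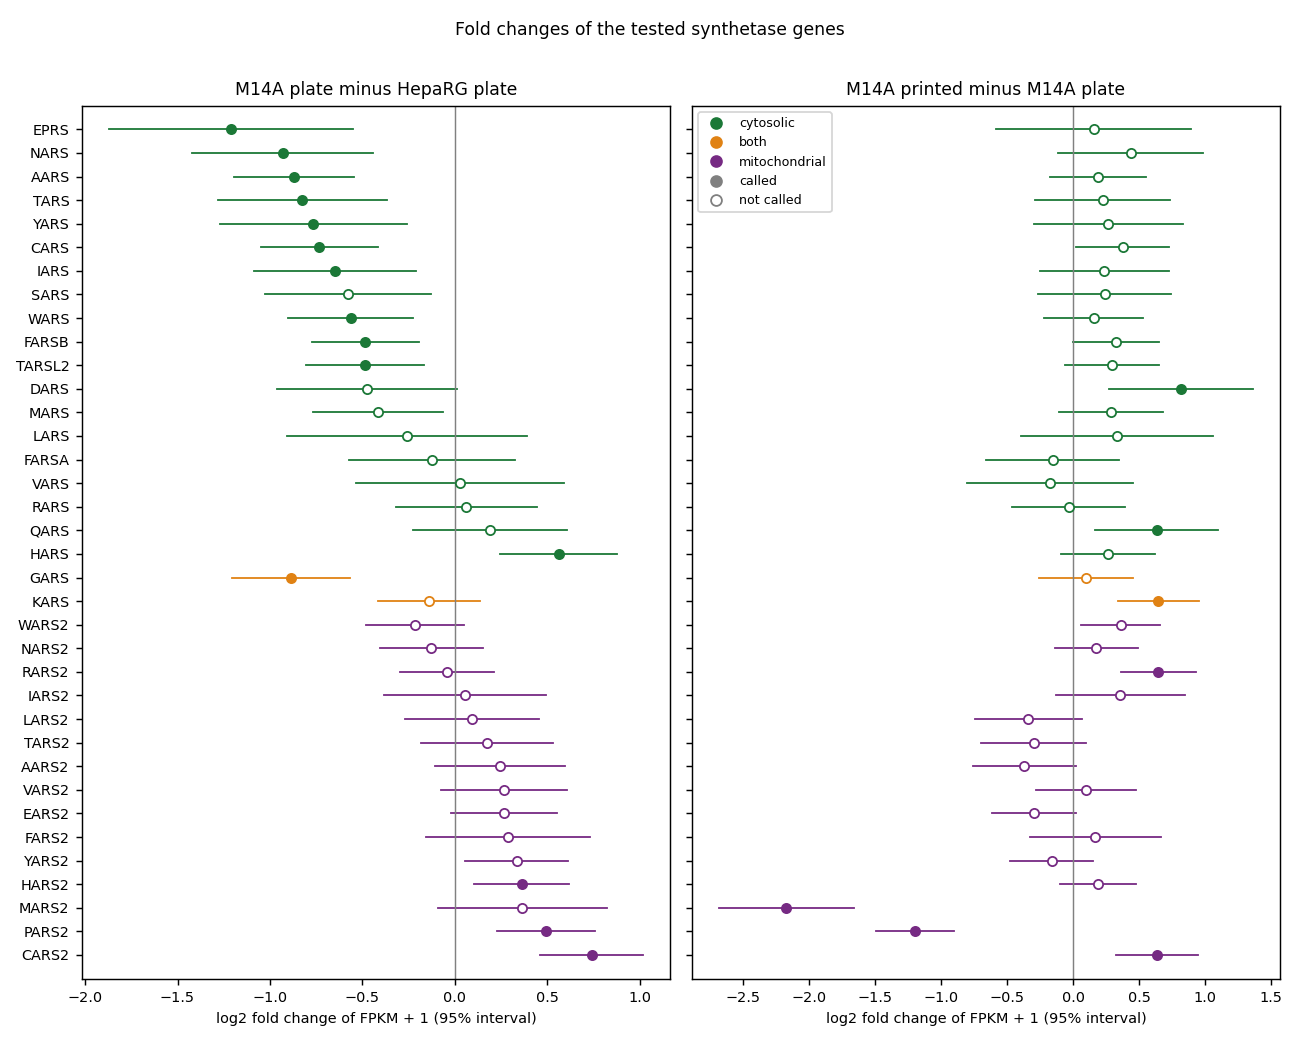
Log2 fold change of FPKM + 1 with its 95% interval for each of 36 tested synthetases, M14A plate minus HepaRG plate on the left and M14A printed minus M14A plate on the right, with filled points called at an adjusted p below 0.05. On the left 11 of those drawn fell and 4 rose; on the right 5 rose and 2 fell, and at equal FPKM totals 0 of the rises were called and 4 of them took the opposite sign.

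The falls with the smallest adjusted p were in GARS and AARS. GARS, the glycyl-tRNA synthetase, stood at 46.3, 35.4 and 34.8 FPKM in M14A plate, against 72.7, 70.5 and 72.6 FPKM in HepaRG plate. AARS, the alanyl-tRNA synthetase, stood at 56.7, 43.9 and 41.0 FPKM in M14A plate, against 85.9, 87.0 and 86.0 FPKM in HepaRG plate. For both genes every M14A plate library lay far below every HepaRG plate library. The log2 fold change was -0.89 for GARS (SE 0.14, adjusted p = 0.0017) and -0.87 for AARS (SE 0.14, adjusted p = 0.0021). EPRS, a single protein with glutamyl- and prolyl-tRNA synthetase activity, had the largest fall, with 9.42, 20.9 and 22.4 FPKM in M14A plate, against 40.3, 39.5 and 38.6 FPKM in HepaRG plate (a log2 fold change of -1.21 with SE 0.29, adjusted p = 0.014). The lowest EPRS value belonged to M14A plate library 1, and without that library the log2 fold change was -0.84 (adjusted p = 0.0017).

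NARS, the asparaginyl-tRNA synthetase, stood at 23.6, 40.7 and 42.2 FPKM in M14A plate, against 67.5, 66.5 and 65.3 FPKM in HepaRG plate (a log2 fold change of -0.93 with SE 0.21, adjusted p = 0.012). CARS, the cysteinyl-tRNA synthetase, stood at 9.56, 7.08 and 6.85 FPKM in M14A plate, against 13.8, 13.3 and 13.5 FPKM in HepaRG plate (a log2 fold change of -0.73 with SE 0.14, adjusted p = 0.0043). NARS was lowest and CARS was highest in M14A plate library 1, yet neither gene's groups overlapped. GARS, AARS, EPRS, NARS and CARS were also called lower when any 1 library was left out and under every other setting tried. All but EPRS carry the C/EBP-ATF core letters printed above.

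The other falls depended more on single libraries. TARS, the threonyl-tRNA synthetase, stood at 12.4, 20.02 and 21.8 FPKM in M14A plate, against 33.3, 31.7 and 30.8 FPKM in HepaRG plate (a log2 fold change of -0.83 with SE 0.20, adjusted p = 0.015). The call was lost without HepaRG plate library 1 (-0.80) or 2 (-0.83), at adjusted p = 0.059 and 0.051. YARS, the tyrosyl-tRNA synthetase, stood at 24.6, 13.4 and 13.0 FPKM in M14A plate, against 28.5, 27.6 and 28.98 FPKM in HepaRG plate (a log2 fold change of -0.76 with SE 0.22, adjusted p = 0.030). Its groups were separate, but library 1 of M14A plate came close to HepaRG plate, and the call was lost when any 1 of the other 5 plate libraries was left out (-0.78 to -0.61, adjusted p = 0.075 to 0.091). IARS, the isoleucyl-tRNA synthetase, stood at 20.2, 31.5 and 33.9 FPKM in M14A plate, against 45.1, 44.4 and 43.5 FPKM in HepaRG plate (a log2 fold change of -0.65 with SE 0.19, adjusted p = 0.032). Without any 1 HepaRG plate library it gave -0.66 to -0.64 (adjusted p = 0.088 to 0.10), although its groups stayed apart in every library, and without M14A plate library 1 it gave -0.43 (adjusted p = 0.0075).

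WARS, the tryptophanyl-tRNA synthetase, stood at 19.5, 14.8 and 13.6 FPKM in M14A plate, against 23.3, 23.3 and 24.9 FPKM in HepaRG plate (a log2 fold change of -0.56 with SE 0.15, adjusted p = 0.021). FARSB, the beta chain of phenylalanyl-tRNA synthetase, stood at 10.3, 12.1 and 12.9 FPKM in M14A plate, against 17.7, 16.6 and 16.1 FPKM in HepaRG plate (a log2 fold change of -0.49 with SE 0.13, adjusted p = 0.020). TARSL2, another cytosolic threonyl-tRNA synthetase, stood at 0.792, 1.084 and 1.52 FPKM in M14A plate, against 1.98, 1.85 and 2.03 FPKM in HepaRG plate (a log2 fold change of -0.48 with SE 0.14, adjusted p = 0.030). The groups did not overlap for any of these genes. WARS lost its call without M14A plate library 2 (-0.52) or 3 (-0.46) or any 1 HepaRG plate library (-0.58 to -0.53), at adjusted p = 0.053 to 0.084. FARSB lost it without any 1 HepaRG plate library (-0.51 to -0.45, adjusted p = 0.063 to 0.094). TARSL2 lost it without M14A plate library 2 or any 1 HepaRG plate library (-0.51 to -0.47, adjusted p = 0.073 to 0.10). FARSA, the alpha chain that pairs with FARSB, did not pass (a log2 fold change of -0.12 with SE 0.20, adjusted p = 0.67), with 113, 76.5 and 66.8 FPKM in M14A plate, against 88.2, 89.0 and 95.3 FPKM in HepaRG plate. Without M14A plate library 1 FARSA was called lower, at -0.34 (adjusted p = 0.044).

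Among members called lower in M14A plate with a promoter window, 6 of 9 held the C/EBP-ATF core letters (AARS, CARS, GARS, IARS, NARS and TARS), against 0 of 4 called higher and 2 of 16 not called. These counts mix the letters with compartment. No mitochondrial member was called lower, and all 6 holders called lower and 1 of the 2 not called were cytosolic or shared. A link between letters and calls was not tested. MARS, the methionyl-tRNA synthetase and the remaining cytosolic holder of the letters, stood at 40.9, 29.6 and 28.3 FPKM in M14A plate, against 42.1, 44.0 and 45.1 FPKM in HepaRG plate. It did not pass with all libraries (a log2 fold change of -0.42 with SE 0.15, adjusted p = 0.072) and did without M14A plate library 1 (-0.58, adjusted p = 4.9e-04). MARS shares 13.3% of its exon bases with other genes, DDIT3 among them. SARS, the seryl-tRNA synthetase, behaved likewise, with -0.58 (adjusted p = 0.055) and -0.81 without that library (adjusted p = 1.9e-04).

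The only cytosolic member that rose was HARS, the histidyl-tRNA synthetase. It stood at 26.1, 19.4 and 19.6 FPKM in M14A plate, against 13.9, 14.2 and 14.6 FPKM in HepaRG plate (a log2 fold change of 0.56 with SE 0.14, adjusted p = 0.016). Its mitochondrial counterpart HARS2, which lies head to head with HARS on chromosome 5, stood at 11.6, 10.6 and 10.04 FPKM in M14A plate, against 7.97, 7.73 and 8.74 FPKM in HepaRG plate (a log2 fold change of 0.36 with SE 0.11, adjusted p = 0.041). Both genes had higher values in every M14A plate library than in any HepaRG plate library. HARS and HARS2 share part of their exon bases with each other and with further genes, 8.38% of HARS and 15.8% of HARS2 in all, so reads there may be uncertain. HARS lost its call without any 1 HepaRG plate library (0.55 to 0.58, adjusted p = 0.057 to 0.068). HARS2 lost it in 12 of 21 other settings, among them without any 1 HepaRG plate library, either printed library or M14A plate library 2 (0.33 to 0.41, adjusted p = 0.056 to 0.16).

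CARS2, the mitochondrial cysteinyl-tRNA synthetase, had the largest rise. It stood at 19.5, 16.9 and 16.3 FPKM in M14A plate, against 9.70, 9.64 and 10.96 FPKM in HepaRG plate (a log2 fold change of 0.74 with SE 0.12, adjusted p = 0.0021), and was called under every setting. PARS2, the mitochondrial prolyl-tRNA synthetase, stood at 5.92, 4.87 and 5.02 FPKM in M14A plate, against 3.21, 3.82 and 3.34 FPKM in HepaRG plate (a log2 fold change of 0.49 with SE 0.12, adjusted p = 0.013). Neither gene overlapped between the groups. PARS2 lost its call without HepaRG plate library 1 (0.45) or 3 (0.47), at adjusted p = 0.072 and 0.066. At equal FPKM totals HARS2 (0.18) was not called, at adjusted p = 0.13.

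Leaving out M14A plate library 1 gave 14 falls and 6 rises among the 37 members, against 22.7% of all genes tested that fell and 20.3% that rose, and all 16 calls made with it were among them. With the GC and length trend removed there were 16 falls and 8 rises, against 22.8% and 21.1% of all genes tested, again including all 16. Leaving out 1 HepaRG plate library cut the falls to between 5 and 6 and the rises to between 1 and 2. These fits, like that without M14A plate library 1, have fewer residual degrees of freedom than the main fit. The share of all genes was not drawn up for the fits without 1 HepaRG plate library. The drop is therefore not read as a result about the synthetases. By catalytic class, 4 of 18 tested class I members fell and 1 rose, against 6 falls and 4 rises among 18 class II members, with EPRS holding both. Within the multisynthetase complex 2 of 8 members (EPRS and IARS) fell and 0 rose, with a median log2 fold change of -0.34. Among the 13 cytosolic or shared members outside the complex 9 fell and 1 rose, with a median of -0.58. No difference between these subsets was tested.

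The 21 members that failed the test here, SARS2 apart, had log2 fold changes between -0.58 (SARS) and 0.37 (MARS2). Of the cytosolic and shared ones, QARS, RARS, VARS, LARS and KARS lay between -0.26 and 0.19 with overlapping groups, and DARS at -0.47 (95% interval -0.96 to 0.014). Of the mitochondrial ones, 9 lay above 0 and 3 below, and YARS2 passed without M14A plate library 1 (0.25, adjusted p = 0.044).

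Ratios within a library compare the cytosolic and the mitochondrial enzyme for the same amino acid and do not depend on the scaling of the library. Such pairs exist for 15 amino acids, with FARSB and TARSL2 left out of those for phenylalanine and threonine. The serine pair rests on SARS2, which was too low to test. In 10 of the 15 pairs every M14A plate library had a lower ratio than every HepaRG plate library, and in 0 the reverse held. No such share was drawn up over other gene pairs, so this count has no background beside it. IARS over IARS2 was 0.656, 0.663 and 0.673 in M14A plate, against 1.12, 1.10 and 1.07 in HepaRG plate. AARS over AARS2 was 6.79, 6.69 and 6.78 in M14A plate, against 16.2, 14.7 and 14.7 in HepaRG plate. CARS over CARS2 was 0.489, 0.418 and 0.421 in M14A plate, against 1.43, 1.38 and 1.23 in HepaRG plate. The isoleucine and cysteine pairs thus had more RNA of the mitochondrial member in every M14A plate library and more of the cytosolic member in every HepaRG plate library, per gene length. In these 3 pairs M14A plate library 1 stayed close to libraries 2 and 3, but not in all of the 10. TARS over TARS2 was 0.891 in library 1, against 2.04 and 2.40 in libraries 2 and 3. NARS over NARS2 was 4.81 in library 1, against 8.74 and 7.91. The 5 pairs that overlapped were those for arginine, histidine, leucine, serine and tryptophan.

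**Figure D3:**
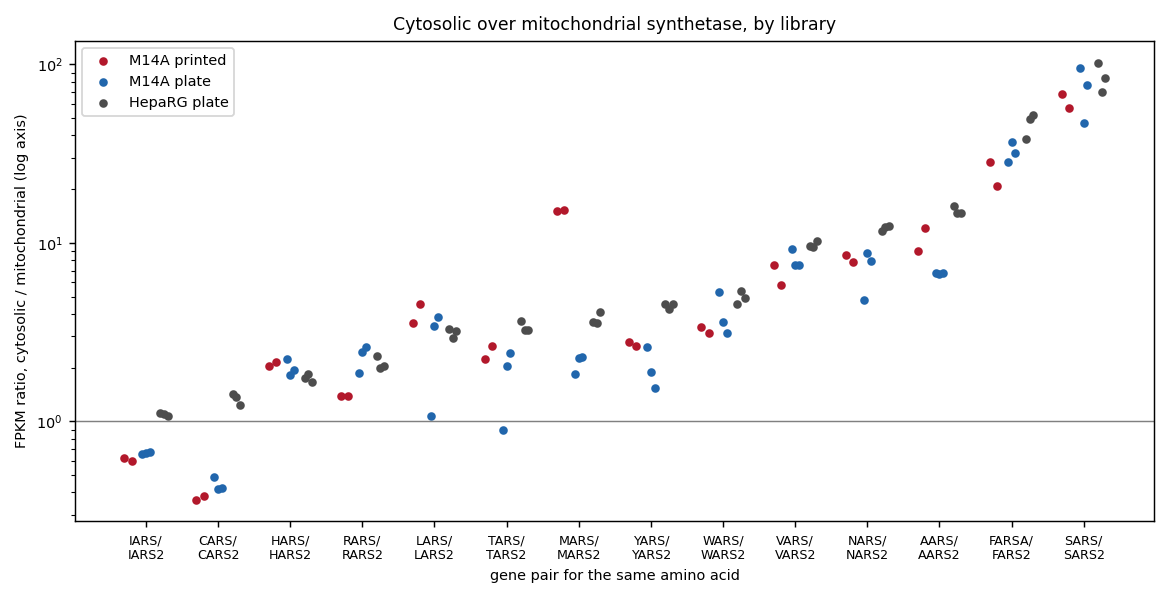
FPKM of the cytosolic synthetase divided by FPKM of the mitochondrial synthetase for 14 amino acids on a log axis, with 1 point per library. In 9 of these pairs the M14A plate points all lie below the HepaRG plate points, with no share over other gene pairs drawn up. The printed points of MARS over MARS2 lie at 15.1 and 15.3, above all others of that pair.

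The second comparison asks how the M14A line 4 h after printing differs from the same line in flasks. It shares the M14A plate libraries with the first, so the comparisons are not set against each other. In M14A printed cells few synthetases were called, and the 2 falls were steeper than the 5 rises. Of 37 tested members 5 rose, against 17.7% of all genes tested, and 2 fell, against 15.5%. In the main fit both shares were thus below those of genes in general. The median log2 fold change of the members was 0.19, beside 0.010 over all genes tested, and at equal FPKM totals it took the opposite sign, -0.50, with the median of all genes at -0.51. Without M14A plate library 1 there were 16 rises and 2 falls, against 28.4% and 27.1% of all genes tested, and the 7 calls made with it were among them. With the GC and length trend removed there were 10 rises and 7 falls, with 6 of the 7 calls among them, against 24.4% and 20.5% of all genes tested. At equal FPKM totals there were 0 rises and 21 falls, against 3.24% and 45.4% of all genes tested. The share of reads from mitochondrially encoded genes, which enters those totals, was 13.3 and 16.4% in M14A printed and 8.21 to 9.72% in M14A plate, and its part in the scaling was not tested beyond leaving these genes out of the total, which gave 0 rises and 17 falls, against 5.51% and 37.1% of all genes tested.

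MARS2, the mitochondrial methionyl-tRNA synthetase, showed the largest difference of the family. It stood at 2.65 and 2.59 FPKM (107 and 127 reads) in M14A printed, against 22.1, 13.2 and 12.4 FPKM (1066, 776 and 734 reads) in M14A plate. HepaRG plate had 11.6, 12.4 and 11.1 FPKM, so the printed libraries alone were low. The log2 fold change between M14A printed and M14A plate was -2.17 (SE 0.22, adjusted p = 6.5e-04) and -1.93 without M14A plate library 1 (adjusted p = 8.7e-05). PARS2 stood at 1.66 and 1.79 FPKM in M14A printed, against 5.92, 4.87 and 5.02 FPKM in M14A plate (a log2 fold change of -1.20 with SE 0.13, adjusted p = 7.4e-04). Both falls were called under every setting, and they differ in direction from CARS2 and RARS2 among the mitochondrial members.

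MARS2 (ENSG00000247626, chromosome 2, 197705369 to 197708387 on the plus strand of GRCh38) has 1 exon, and PARS2 (ENSG00000162396, chromosome 1, 54756898 to 54764514 on the minus strand) has at most 2 in any annotated coding transcript, the fewest of the family. Over the 232 tested protein-coding genes with 1 exon, the median log2 fold change between M14A printed and M14A plate was -0.31, with 82 falls and 26 rises. Over the 629 with at most 2 exons it was -0.26, with 204 falls and 69 rises. Both members fell by more than these medians, and the part of gene structure in their falls was not tested.

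The rises comprised 3 members of the multisynthetase complex and 2 mitochondrial enzymes. KARS, the lysyl-tRNA synthetase, stood at 77.9 and 84.1 FPKM in M14A printed, against 56.1, 48.2 and 50.04 FPKM in M14A plate (a log2 fold change of 0.65 with SE 0.14, adjusted p = 0.0081). QARS, the glutaminyl-tRNA synthetase, stood at 95.6 and 89.4 FPKM in M14A printed, against 80.02, 52.2 and 49.8 FPKM in M14A plate (a log2 fold change of 0.63 with SE 0.20, adjusted p = 0.043). DARS, the aspartyl-tRNA synthetase, stood at 18.4 and 21.0 FPKM in M14A printed, against 7.09, 12.3 and 13.9 FPKM in M14A plate (a log2 fold change of 0.82 with SE 0.24, adjusted p = 0.030). Every printed library lay above every M14A plate library for these genes, though library 1 of M14A plate was the nearest for QARS and the farthest for DARS. KARS lost its call without printed library 2 (0.59, adjusted p = 0.058). QARS lost it without any 1 library other than M14A plate library 1 (0.51 to 0.68, adjusted p = 0.074 to 0.18), and DARS without either printed library (0.91 and 0.73) or any 1 HepaRG plate library (0.82), at adjusted p = 0.052 to 0.15. The other 5 members of the complex, EPRS, IARS, LARS, MARS and RARS, had log2 fold changes between -0.035 and 0.33 and did not pass.

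RARS2, the mitochondrial arginyl-tRNA synthetase, stood at 19.5 and 21.8 FPKM in M14A printed, against 12.3, 12.6 and 13.6 FPKM in M14A plate (a log2 fold change of 0.65 with SE 0.12, adjusted p = 0.0056). CARS2 stood at 28.6 and 27.1 FPKM in M14A printed, against 19.5, 16.9 and 16.3 FPKM in M14A plate (a log2 fold change of 0.64 with SE 0.14, adjusted p = 0.0089). Neither gene overlapped between the groups. CARS2 lost its call without printed library 1 (0.60, adjusted p = 0.059), and RARS2 with the GC and length trend removed (0.24, adjusted p = 0.12). The rises are relative to the bulk of genes, because at equal FPKM totals KARS gave -0.11, QARS -0.12, RARS2 -0.074 and CARS2 -0.094, while DARS gave 0.10, all above the median of -0.51 over all genes and none called. In a fit of only the M14A groups none of the 5 rises passed, at the same log2 fold changes and adjusted p = 0.055 to 0.14.

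**Figure D4:**
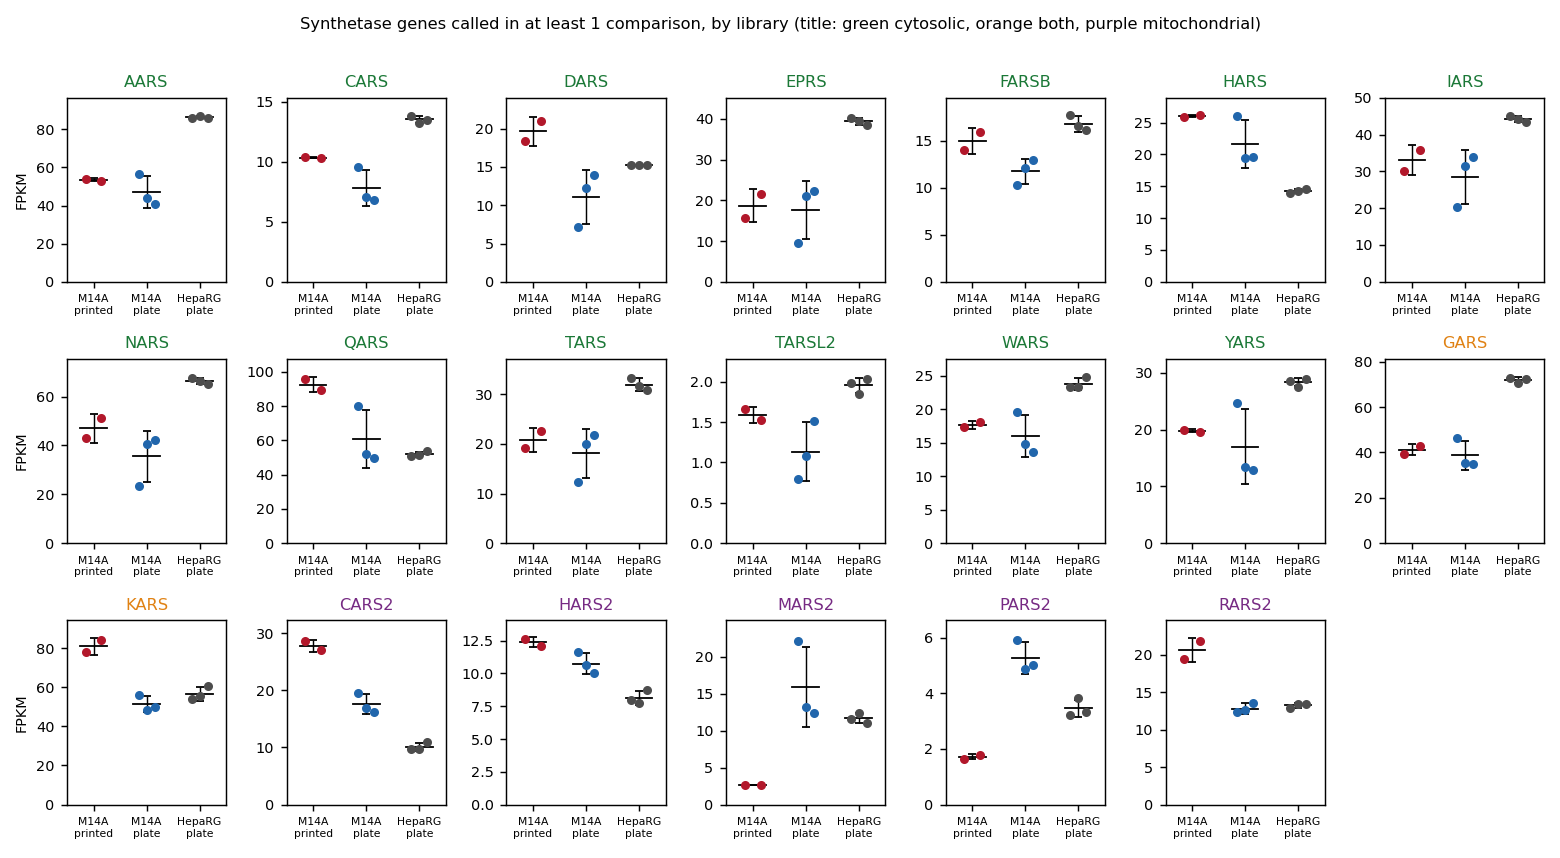
FPKM by library of 20 synthetases called in at least 1 comparison, with points for libraries and lines for the mean and SD of M14A printed (n = 2), M14A plate (n = 3) and HepaRG plate (n = 3). MARS2 and PARS2 are lowest in M14A printed, CARS2 is highest there, and AARS, EPRS, GARS and NARS are highest in HepaRG plate.

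Among members that were not called for printing, the 5 whose falls between the lines held without any 1 library gave log2 fold changes of 0.10 for GARS (95% interval -0.26 to 0.46), 0.19 for AARS (-0.17 to 0.55), 0.16 for EPRS (-0.58 to 0.89), 0.44 for NARS (-0.11 to 0.98) and 0.38 for CARS (0.026 to 0.73). NARS and CARS did not overlap between the groups, and CARS missed the threshold (adjusted p = 0.092) but passed as higher without M14A plate library 1 (0.51, adjusted p = 9.3e-04). WARS gave 0.16 (-0.22 to 0.53) and TARSL2 0.30 (-0.061 to 0.65). Apart from that of CARS, these intervals include 0. Of these, AARS (0.33), GARS (0.23) and WARS (0.30) passed as higher in M14A printed without M14A plate library 1, at adjusted p = 0.0068, 0.034 and 0.016, whereas at equal FPKM totals they fell by 0.56, 0.64 and 0.56. LARS2, TARS2, AARS2 and EARS2, mitochondrial enzymes for leucine, threonine, alanine and glutamate, lay between -0.37 and -0.30 without passing, and without overlap between the groups.

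Set against HepaRG plate, M14A printed cells differed by line, printing and collection together. Of 37 tested members 6 rose, against 28.1% of all genes tested, and 6 fell, against 28.1%. In the main fit the share of members called in either direction was thus below that of genes in general. Without M14A plate library 1, 11 rose and 13 fell, against 35% and 37.7% of all genes tested. With the GC and length trend removed 9 rose and 12 fell, against 32.1% and 31.7%, so the falls were then near the share of all genes. At equal FPKM totals 1 rose and 29 of 37 fell, against 9.64% and 63.1% of all genes tested, with the median of all genes at -0.77. CARS2 rose most, with 28.6 and 27.1 FPKM in M14A printed, against 9.70, 9.64 and 10.96 FPKM in HepaRG plate (a log2 fold change of 1.38 with SE 0.14, adjusted p = 8.6e-05). HARS stood at 25.9 and 26.1 FPKM in M14A printed, against 13.9, 14.2 and 14.6 FPKM in HepaRG plate (a log2 fold change of 0.83 with SE 0.16, adjusted p = 0.0022), and HARS2 at 12.6 and 12.1 FPKM, against 7.97, 7.73 and 8.74 FPKM in HepaRG plate (0.55, SE 0.13, adjusted p = 0.0062). RARS2, QARS and KARS also rose, by 0.60, 0.82 and 0.51 (adjusted p = 0.0036, 0.0087 and 0.012). At equal FPKM totals these genes other than CARS2 took the opposite sign, between -0.45 and -0.090. KARS (-0.45, adjusted p = 0.0037) and HARS2 (-0.33, adjusted p = 0.017) were then called lower by limma, while RARS2, QARS and HARS were not called. KARS lost its call without printed library 2 (0.45) or HepaRG plate library 1 (0.47), and QARS without printed library 1 (0.77), at adjusted p = 0.054 to 0.075.

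The falls against HepaRG plate were in MARS2 (a log2 fold change of -1.81 with SE 0.22, adjusted p = 2.7e-04), PARS2 (-0.71, SE 0.13, adjusted p = 0.0020), GARS, AARS, EPRS and TARS. GARS stood at 39.6 and 43.0 FPKM in M14A printed, against 72.7, 70.5 and 72.6 FPKM in HepaRG plate (a log2 fold change of -0.79 with SE 0.16, adjusted p = 0.0030). AARS stood at 54.1 and 52.9 FPKM in M14A printed, against 85.9, 87.0 and 86.0 FPKM in HepaRG plate (a log2 fold change of -0.68 with SE 0.16, adjusted p = 0.0067). EPRS stood at 15.8 and 21.6 FPKM in M14A printed, against 40.3, 39.5 and 38.6 FPKM in HepaRG plate (a log2 fold change of -1.05 with SE 0.32, adjusted p = 0.023). The printed libraries lay below each HepaRG plate library for all 6 genes. TARS stood at 19.1 and 22.5 FPKM in M14A printed, against 33.3, 31.7 and 30.8 FPKM in HepaRG plate, and passed narrowly (-0.60 with SE 0.22, adjusted p = 0.048). It lost its call without either printed library, M14A plate library 2 or any 1 HepaRG plate library (-0.71 to -0.48, adjusted p = 0.057 to 0.22), and EPRS without printed library 1 or any 1 HepaRG plate library (-1.07 to -0.84, adjusted p = 0.051 to 0.15).

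The other members called in the comparison of the plate lines did not pass between M14A printed and HepaRG plate, apart from CARS2, HARS and HARS2 above. NARS stood at 42.9 and 51.3 FPKM, IARS at 30.2 and 35.9 FPKM, YARS at 19.95 and 19.6 FPKM, WARS at 17.3 and 18.1 FPKM and CARS at 10.4 and 10.3 FPKM in M14A printed. All these values lay below every HepaRG plate library of the same gene without passing the test (log2 fold changes -0.50 to -0.36). Each of the 5 was called lower when M14A plate library 1 was left out, which changes only the shared estimate of spread in this comparison. That setting called 13 of 37 members and 37.7% of all genes tested lower. FARSB at 13.97 and 15.9 FPKM and TARSL2 at 1.66 and 1.52 FPKM in M14A printed lay just below the HepaRG plate libraries as well. All these members were picked by their call in M14A plate against the same HepaRG plate libraries. Low values here are thus partly fixed by that choice. The share of all genes with such a separation was not drawn up.

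The partners of the synthetases were read from lists of related genes, none of which was tested as a set. Between the plate lines 16.1% of all genes tested rose and 14.7% fell. For M14A printed the shares were 17.7% and 15.5% against M14A plate, and 28.1% in each direction against HepaRG plate. The counts of each list, some of them near these shares, stand beside them. All 3 scaffold genes of the multisynthetase complex fell in M14A plate against HepaRG plate, or 2 of them without M14A plate library 1, and 2 rose in M14A printed against M14A plate. Against HepaRG plate 1 fell in M14A printed, AIMP2 (-0.72, adjusted p = 0.020), and this call was lost without 1 of 4 libraries (-0.77 to -0.67). AIMP2 averaged 28.7 ± 8.80 FPKM in M14A plate and 45.8 ± 1.47 in HepaRG plate (a log2 fold change of -0.69 with SE 0.19, adjusted p = 0.026). AIMP1 averaged 15.4 ± 1.24 FPKM in M14A printed (n = 2), 8.42 ± 2.26 in M14A plate and 12.8 ± 0.769 in HepaRG plate (n = 3 each). Its log2 fold change was -0.57 between M14A plate and HepaRG plate (adjusted p = 0.042) and 0.83 between M14A printed and M14A plate (adjusted p = 0.015). EEF1E1 averaged 2.30 ± 0.188 FPKM in M14A printed and 1.39 ± 0.332 in M14A plate (0.47, adjusted p = 0.043), but gave 0.032 (adjusted p = 0.89) with the GC and length trend removed, where 1 scaffold gene rose, AIMP1 (0.53, adjusted p = 0.0014). EEF1E1 gave -0.021 at equal FPKM totals, where AIMP1 also lost its call for printing (0.12, adjusted p = 0.72). Between the lines the calls were lost when 1 of 5 libraries (AIMP2, -0.72 to -0.56) or 1 of 6 libraries (AIMP1, -0.62 to -0.54) was left out, at adjusted p = 0.059 to 0.13, while AIMP1 without M14A plate library 1 gave -0.37 (adjusted p = 0.021). For printing they were lost for AIMP1 without either printed library (0.91 and 0.75) and for EEF1E1 without 1 of 6 libraries (0.41 to 0.53), at adjusted p = 0.057 to 0.19.

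The ATF4 program, a list of 22 genes of amino acid supply and stress response that includes ATF4 itself, had 13 falls and 1 rise among 18 tested genes in M14A plate against HepaRG plate, with a median log2 fold change of -0.88. ATF4 stood at 63.1, 45.2 and 42.5 FPKM in M14A plate, against 127, 123 and 127 FPKM in HepaRG plate (a log2 fold change of -1.33 with SE 0.16, adjusted p = 3.8e-04). The amino acid transporters SLC7A11 and SLC7A5 fell further, with log2 fold changes of -3.40 and -3.09 (adjusted p = 1.2e-05 and 8.2e-06), whereas SESN2, a leucine-sensing inhibitor of mTORC1 signalling, rose to 22.8 ± 7.32 FPKM in M14A plate, against 11.1 ± 0.542 in HepaRG plate (0.93, adjusted p = 0.010). In M14A printed, ATF4 stood at 111 and 99.6 FPKM, above every M14A plate library (1.07, SE 0.18, adjusted p = 0.0033) and below every HepaRG plate library without passing (-0.26, adjusted p = 0.25), although it passed as lower at equal FPKM totals (-1.22) and, with the spread estimated without M14A plate library 1, at the same -0.26 (adjusted p = 0.015). The list itself had 5 rises and 3 falls between M14A printed and M14A plate, with DDIT4, a stress-induced inhibitor of mTORC1, falling to 15.1 ± 1.03 FPKM in M14A printed, against 47.1 ± 19.5 in M14A plate (-1.51, adjusted p = 0.0043). It had 1 rise and 8 falls between M14A printed and HepaRG plate, where SLC7A5 gave -3.68 and SLC7A11 -3.43 (adjusted p = 5.4e-06 and 1.8e-05). EIF2AK4 was not called in any comparison at the deposited scale, with 8.30 ± 1.42 FPKM in M14A printed, 9.05 ± 0.935 in M14A plate and 10.05 ± 0.353 in HepaRG plate, but at equal FPKM totals it passed as lower in M14A printed, by -0.79 against M14A plate and -1.12 against HepaRG plate (adjusted p = 0.011 and 0.0013). With the GC and length trend removed it passed as higher in M14A printed than in HepaRG plate (0.23, adjusted p = 0.044).

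Genes of the interferon gamma response gave 5 rises and 0 falls among 11 tested in M14A plate against HepaRG plate, while WARS fell. CXCL10 averaged 7.07 ± 2.65 FPKM in M14A plate and 1.40 ± 0.397 in HepaRG plate (log2 fold change 1.70, adjusted p = 0.0013), and SOCS1 4.41 ± 0.636 and 1.25 ± 0.0931 FPKM (1.26, adjusted p = 0.0018). Between M14A printed and M14A plate the list had 2 rises and 0 falls, in the immunoproteasome genes PSMB9 (1.01, adjusted p = 0.0056) and PSMB8 (0.84, adjusted p = 0.039), and PSMB8 lost its call without 1 of 7 libraries (0.68 to 0.99). At equal FPKM totals neither rise passed, with 0.30 for PSMB9 and 0.096 for PSMB8. Without M14A plate library 1 the list had 4 rises and 2 falls in this comparison, against 28.4% and 27.1% of all genes tested. Between M14A printed and HepaRG plate it had 8 rises and 0 falls, with CXCL10 at 2.43 and the peptide transporter TAP1 at 1.36 (adjusted p = 2.0e-04 and 0.0014).

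Further parts of the translation machinery were read from 3 lists. All 16 cytosolic ribosomal protein genes rose in M14A printed against M14A plate, RPS19 (1.68) most and at a median of 1.38 on the log2 scale, and 15 rose against HepaRG plate, among them RPS19 (2.22) and RPL18 (1.76). Between the plate lines 1 of the 16 rose (RPS19, 0.54) and 1 fell (RPS23, -0.86), both lost when 1 of several libraries was left out (0.50 to 0.60 and -0.89 to -0.64). Cytosolic elongation factors bring charged tRNAs to the ribosome and move it along. Of 5 tested, 0 were called between the plate lines, 2 rose in M14A printed against M14A plate and 3 against HepaRG plate. Against M14A plate 4 rose without M14A plate library 1 and 5 with the GC and length trend removed, where 28.4% and 24.4% of all genes tested rose. EEF1A1 averaged 2813 ± 152 FPKM in M14A printed, 1376 ± 290 in M14A plate and 1113 ± 16.8 in HepaRG plate, and between the plate lines it gave 0.29 (adjusted p = 0.18). EEF1B2 rose by 1.22 in M14A printed against M14A plate and by 1.51 against HepaRG plate (adjusted p = 0.0019 and 2.1e-04). At printing the synthetases thus had a median of 0.19 where the ribosomal proteins had 1.38, each on the same scale, and this difference was not tested.

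Of 13 mitochondrial translation factors 1 rose and 2 fell between the plate lines, where GFM2, a ribosome recycling factor, gave -0.75 and TSFM, an elongation factor, gave 0.48 (adjusted p = 0.030 and 0.037). Both calls were lost when 1 of several libraries was left out (-0.80 to -0.72 and 0.47 to 0.52), and GFM2 without M14A plate library 1 gave -0.48 (adjusted p = 0.0034). In M14A printed 1 rose against M14A plate, the elongation factor TUFM at 402 ± 57.0 FPKM, against 226 ± 66.0 in M14A plate (0.86, adjusted p = 0.018), lost without printed library 1 (0.71) or M14A plate library 2 (0.78) at adjusted p = 0.12 and 0.055. Without M14A plate library 1, 5 of the 13 rose and 1 fell in that comparison, against 28.4% and 27.1% of all genes tested. Against HepaRG plate 5 of the 13 rose and 0 fell, against 28.1% of all genes tested in each direction. Without M14A plate library 1 these were 7 and 2, against 35% and 37.7%. TUFM gave 1.20 and the recycling factor MRRF 0.62 against HepaRG plate (adjusted p = 0.0020 and 0.0042). At equal FPKM totals MRRF gave -0.18 there and TUFM lost both calls (0.095 against M14A plate and 0.23 against HepaRG plate). Of 8 tested genes of tRNA editing, export and sensing, 1 rose and 1 fell between the plate lines. The one that fell was the tRNA exporter XPOT, at 16.5 ± 5.88 FPKM in M14A plate and 31.1 ± 1.12 in HepaRG plate (-0.94, adjusted p = 0.022), lost without any 1 HepaRG plate library (-0.97 to -0.92) and at -0.62 without M14A plate library 1 (adjusted p = 0.0026). In M14A printed 0 of them rose and 2 fell, GCN1, which activates GCN2, and GTPBP2, a ribosome rescue factor, by 0.75 and 0.73 against M14A plate (adjusted p = 0.010 and 0.012) and by 0.55 and 0.63 against HepaRG plate (adjusted p = 0.021 and 0.013). Leaving out printed library 2 ended all 4 of these calls. Leaving out printed library 1 or certain HepaRG plate libraries ended some of them. Log2 fold changes were -0.78 to -0.51 where a call was lost. With the GC and length trend removed GCN1 against HepaRG plate was lost as well (-0.18). Without M14A plate library 1, 2 of the 8 genes rose and 2 fell against M14A plate, and 1 rose and 3 fell against HepaRG plate.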

How the data were processed

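RNA-seq of 8 libraries was analysed, 2 of M14A printed, 3 of M14A plate and 3 of HepaRG plate, grouped by their labels. The authors deposited 1 table of FPKM values per gene and library. HISAT2 2.0.5 and featureCounts 1.5.0-p3 are named in the submitters' processing notes, the kit was a NEBNext Ultra kit per the labels' protocols, and the genome build is not given in the sources used here, but the coordinates of all 58735 genes are identical to those of GENCODE 29 (GRCh38). The values were whole multiples of what 1 read is worth in 100.0% of cases within 0.01, which gave 15632154 to 19148262 reads per library. Every column belonged to a sample. The chi-square per degree of freedom between replicates was 2.84 to 78.0, so none was counted as a duplicate.

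A gene entered the test where 2 or more libraries reached 1 FPKM, which held for 14349. The log2 of FPKM plus 1 was fitted with limma (version 3.58.1, R 4.3.3) in 1 fit over all 8 libraries with 5 residual degrees of freedom and an intensity trend. Tests were two-sided, with calls at p below 0.05 after Benjamini-Hochberg adjustment. The procedure was tested on simulated data. Alternatives were a pseudocount of 0.1, no filter or a filter at 5 FPKM, equal FPKM totals with and without mitochondrially encoded genes, median-ratio scaling, no trend, a fit of only the groups compared, voom on the recovered reads, a replicate block and leaving out each library. Removal of the GC and length trend (splines with 5 degrees of freedom), its repeat with M14A plate library 1 left out, and a fit of protein-coding genes only were added after seeing the data. The members and lists were chosen with earlier results of these data known. Members called in any comparison are named with their values, and of each related list at most 2 called genes per comparison with the largest absolute log2 fold change, or the most abundant gene where none was called, with ATF4, EIF2AK4 and a few members given in any case. Some genes, which counts and medians include, are not reported by name here. Reads in exons shared by genes or with pseudogenes (of KARS, AARS, NARS, GARS, CARS, WARS and FARSB among others) are uncertain. Promoter windows came from RefSeq.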

Additional observations from a re-analysis of the deposited data

How the results depend on the processing

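Across 21 alternatives, values of the synthetases called in a comparison, and of AARS, GARS, WARS and TARSL2 in any case, kept direction and side of the threshold in 711 cases, lost a call in 92, gained one in 13 and took the opposite sign in 21. Counts of calls over all genes tested also move between settings, and their shares were drawn up for only some of them. Between M14A plate and HepaRG plate the higher calls were 3 at equal FPKM totals, with or without mitochondrially encoded genes. They were 8 with the GC and length trend removed and 10 with M14A plate library 1 also left out, where lower calls were 17. Of all genes tested 13.9% and 15.6% were higher at the equal totals and 21.1% with the trend removed. The median log2 fold change was -0.30 and -0.24 at the equal totals, -0.10 with median-ratio scaling, and -0.018 and -0.089 with the trend removed. Leaving out 1 library gave 1 to 6 higher calls, 5 to 14 lower calls and medians of -0.13 to -0.062. Between M14A printed and M14A plate the higher calls were 3 with no filter, 0 at both equal totals, 0 with only the groups compared, 10 with the trend removed and 18 with library 1 also left out. Lower calls were 21 and 17 at the equal totals and 7 with the trend removed, with or without library 1. The median was 0.24 with a pseudocount of 0.1 and with voom, -0.50 and -0.33 at the equal totals and 0.23 with median-ratio scaling. Leaving out 1 library gave 2 to 16 higher calls, 2 to 2 lower calls and medians of 0.14 to 0.26. Between M14A printed and HepaRG plate the higher calls were 1 at both equal totals, 10 with only the groups compared and 12 with the trend and library 1 removed. Lower calls were 29 and 25 at the equal totals, 13 with only the groups compared, 12 with the trend removed and 15 without library 1 as well. Of all genes tested 63.1% and 53.5% were lower at the equal totals and 31.7% with the trend removed. The median was -0.14 with a pseudocount of 0.1, with voom and with the replicate block, -0.93 and -0.72 at the equal totals and -0.072 with median-ratio scaling. Leaving out 1 library gave 5 to 11 higher calls, 4 to 13 lower calls and medians of -0.15 to -0.11. Opposite signs arose at equal totals for M14A printed against M14A plate in KARS (-0.11), QARS (-0.12), RARS2 (-0.074), CARS2 (-0.094), EEF1E1 (-0.021) and, with mitochondrial genes and without them, AARS (-0.56, -0.38), GARS (-0.64, -0.47), WARS (-0.56, -0.39) and TARSL2 (-0.14, -0.046). Against HepaRG plate they arose in QARS (-0.13), HARS (-0.090), MRRF (-0.18), KARS (-0.45, -0.20), RARS2 (-0.31, -0.071) and HARS2 (-0.33, -0.10). With the trend removed GARS gave -0.024 for M14A printed against M14A plate, and EIF2AK4 gave 0.073, 0.16 and 0.23 over the 3 comparisons, or 0.019, 0.21 and 0.23 without library 1. Leaving out 1 library gave -0.27 to 0.041 for EIF2AK4 in M14A printed against M14A plate. With the trend removed, calls that held but moved over 1.5 times were PARS2 (0.26), HARS2 (0.22) and TSFM (0.28) between the plate lines, CARS2 (0.99), AIMP1 (0.53) and GCN1 (-0.39) for M14A printed against M14A plate, and PARS2 (-1.18), HARS2 (0.33), RARS2 (0.30), AIMP2 (-1.24) and MRRF (1.06) against HepaRG plate. The causes were not tested. Replicate numbers were not taken to pair the libraries: deviations of same-numbered libraries correlated at -0.155 to 0.0808 between the plate groups, at -0.0432 and 0.0744 between M14A printed and HepaRG plate, and at 0.487 and 0.365 in the 2 pairs of M14A printed and M14A plate, where printed library 2 lay nearer M14A plate library 3 (0.433). With the number as a replicate block the higher and lower calls were 4 and 11 for the plate lines (median -0.12), 4 and 2 for M14A printed against M14A plate (median 0.19), and 6 and 5 against HepaRG plate. With 2 printed libraries the precision is limited, and SARS2 with 19 to 45 reads was too low to test.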
